A study of Homo sapiens with 19 samples.

Results

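The tricarboxylic acid (TCA) cycle and the steps by which pyruvate enters it are described here through the ERRα peaks called near 30 genes, out of 20163 protein-coding genes of the annotation. A gene was chosen for its known function, at a time when earlier results of these data were known. A peak was counted for a gene when its centre lay within 20 kb of an annotated transcription start of the gene in hg19. The 30 genes comprise 16 cycle enzymes, 4 genes of the pyruvate dehydrogenase complex, 6 kinases and phosphatases of that complex, and 4 genes of pyruvate and citrate entry and exit. Of the 264623 peaks of the 8 lists, 482 lay near these genes, and they merged into 122 sites.

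The TCA cycle oxidizes acetyl-CoA in the mitochondrial matrix and feeds electrons to the respiratory chain. Pyruvate reaches it through the mitochondrial pyruvate carrier and the pyruvate dehydrogenase complex, which is turned off by pyruvate dehydrogenase kinases and turned on again by its phosphatases. ERRα is an orphan nuclear receptor known for its control of mitochondrial energy genes, and it binds as a rule to the ERR response element (ERRE), with TCAAGGTCA as its core word.

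ERRα chromatin immunoprecipitation and sequencing (ChIP-seq) was carried out in ERBB2-positive human breast cancer cell lines. SKBr3 and BT-474 cells were serum-starved for 24 h and received vehicle, 100 µM EGF or 100 µM HRG (heregulin) for 90 min. Untreated parental SKBr3 cells (pSKBr3) and lapatinib-resistant SKBr3 cells kept in 2 µM lapatinib (LRSKBr3) were also profiled, both without serum starvation. The latter differ from the former in both resistance and the presence of the drug, which cannot be told apart. The SKBr3, pSKBr3 and LRSKBr3 lists each pool 2 ChIP libraries and the BT-474 lists hold 1 each. The lists held from 22539 peaks (pSKBr3) to 41271 (BT-474 HRG), and the sequencing depth behind them is unknown. With 1 list per condition there is no spread between cultures, and no comparison below has a test.

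The sequences around ERRE words are shown first, since they are the reference DNA on which the member peaks can be compared with the ERRE. The words TCAAGGTCA, TGAAGGTCA and TAAAGGTCA, or TNAAGGTCA with N for any base, were sought on both strands in the GRCh37 sequence, and the word is in capitals in each line. Each line gives the strand of the word and reads 5′ to 3′ on it. The words of the first 3 lines lay within 100 bp of a peak centre and within 1 kb of a start. The others were chosen after their values were seen, as words in peaks called in all 8 lists.
IDH3A intron (chr15:78442556-78442656, plus strand): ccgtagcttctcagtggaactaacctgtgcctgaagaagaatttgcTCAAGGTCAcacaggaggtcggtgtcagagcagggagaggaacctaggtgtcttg
PDHA1 intron (chrX:19362628-19362728, minus strand): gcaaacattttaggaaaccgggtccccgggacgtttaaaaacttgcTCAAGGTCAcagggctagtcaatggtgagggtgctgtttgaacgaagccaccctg
PDK2 coding exon (chr17:48185728-48185756, plus strand): ctcccacccaTCAAGGTCAtggtggcctt
IDH3A intron, second word (chr15:78441957-78442057, plus strand): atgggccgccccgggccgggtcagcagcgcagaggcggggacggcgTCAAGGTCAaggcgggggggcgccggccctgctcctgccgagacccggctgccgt
IDH2 intron (chr15:90638788-90638888, plus strand): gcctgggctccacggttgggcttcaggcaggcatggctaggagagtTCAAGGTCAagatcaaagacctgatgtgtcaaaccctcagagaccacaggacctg
CS intron (chr12:56692893-56692993, plus strand): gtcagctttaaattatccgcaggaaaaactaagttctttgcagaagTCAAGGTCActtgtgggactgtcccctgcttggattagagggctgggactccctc
MPC2 intron (chr1:167904272-167904372, plus strand): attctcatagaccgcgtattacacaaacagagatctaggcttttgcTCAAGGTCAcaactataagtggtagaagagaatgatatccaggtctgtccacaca
FH intron (chr1:241682836-241682864, plus strand): gcaggagggcTGAAGGTCActgcggggag
IDH1 intron (chr2:209118839-209118867, plus strand): actttccaaaTAAAGGTCAtgggagcaca

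The words sat at different places within their peaks. The IDH2 word lay 5089 bp downstream of the nearest start, and within 100 bp of the peak centre in 7 of 8 lists. The FH word, 144 bp from a start, was that close to the centre in 6 lists, and the IDH1 word, 193 bp from a start, in 5. The PDK2 word also lay near the centre in 5 lists, but 13027 bp from the canonical start of the gene, so that the start beside it, 370 bp away, is an internal one. The first IDH3A word, 855 bp from a start, was near the centre in 3 lists and the PDHA1 word, 597 bp from a start, in 2. The CS, MPC2 and second IDH3A words were inside peaks of all 8 lists but more than 100 bp from every centre. Over the whole width of the member peaks, TCAAGGTCA occurred 20 times in 13 genes.

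The ERRE word was not shown to be more frequent at these genes than elsewhere. It lay within 100 bp of the strongest peak's centre at 8 of 122 member sites (6.56%, 95% Wilson interval 3.36 to 12.4%) against 4.52% of the 42362 sites near any protein-coding gene. The interval covers counting error only and holds the share of all sites. At 2 kb from the centre on either side, windows of this size held the word in 0.82% of cases at member sites and 0.276% at all sites. Among sites called in all 8 lists, 3 of 25 member sites had it (12%, interval 4.17 to 29.96%) against 6.87% of all such sites. The looser word TNAAGGTCA, of which TCAAGGTCA is a part, was present at 13 member sites (10.7%) against 7.24%. The AP-1 words TGACTCA and TGAGTCA, bound by the FOS and JUN family, were found at 8 of 122 member sites (6.56%) against 6.87% of all sites. Of the member sites shared by all lists, 0 of 25 had an AP-1 word (Wilson upper limit 13.3%), and 5.17% of all such sites did.

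ERRα peaks were present near most of the 30 genes in every list. In SKBr3 cells, 28 genes had a peak on vehicle (54.1% of all protein-coding genes did), 27 on EGF (56.3%) and 28 on HRG (66.4%). BT-474 cells gave 25 on vehicle (53.0% of all), 23 on EGF (42.3%) and 25 on HRG (55.3%). The pSKBr3 list had 28 (57.1% of all) and the LRSKBr3 list 28 (69.9%). Few members were left to gain a peak, with 2 unbound in SKBr3 cells on vehicle and in pSKBr3 cells and 5 in BT-474 cells on vehicle, so that a steady count is no sign of steady binding. The lowest count of members, like the lowest share of all genes, was that of the BT-474 EGF list.

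The difference from other genes was wider at promoters, taken as the region within 1 kb of a start. On vehicle, EGF and HRG, 22, 21 and 22 of the 30 genes had a promoter peak in SKBr3 cells, beside 23.3%, 22.3% and 35.7% of all genes. The BT-474 lists gave 18, 16 and 19, beside 19.4%, 11.4% and 16.8%. In pSKBr3 cells 24 genes had a promoter peak and in LRSKBr3 cells 25, beside 31.4% and 41.7% of all genes. Each comparison of EGF or HRG with vehicle in a line uses the same vehicle list.

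**Figure D1:**
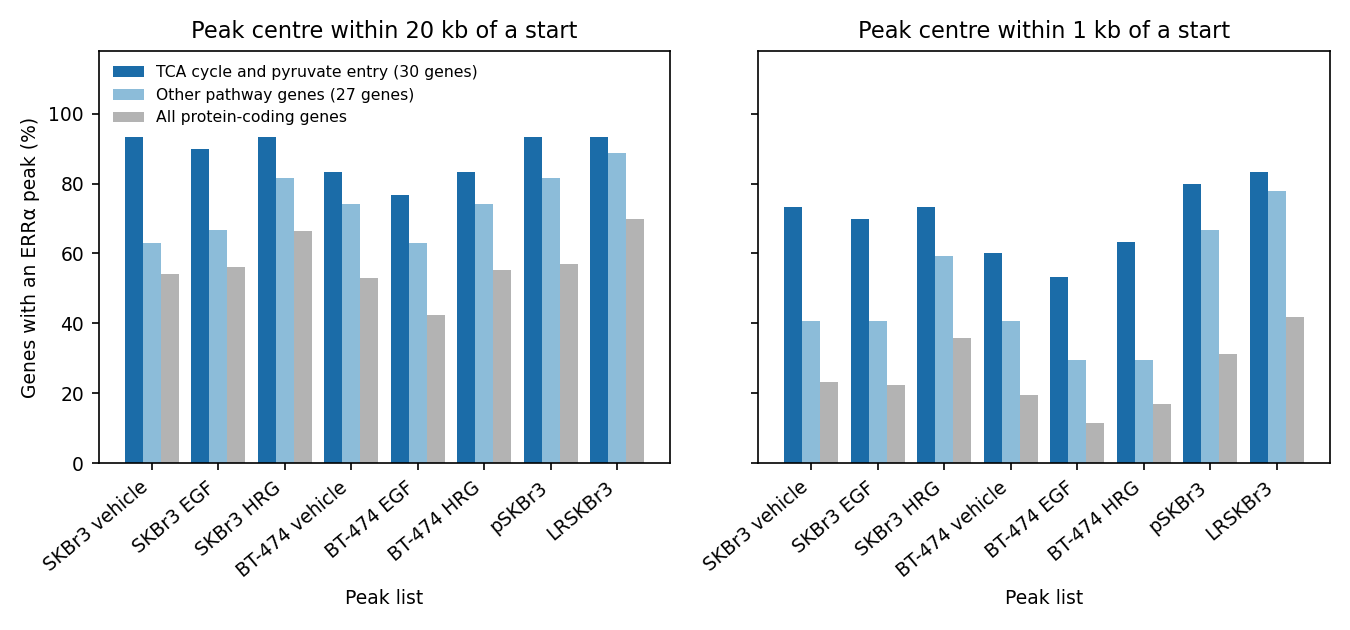
Percentage of genes with an ERRα peak in each of the 8 lists, for the 30 genes of the TCA cycle and pyruvate entry, 27 other genes of the pathway and all 20163 protein-coding genes; the left panel takes peak centres within 20 kb of a start and the right panel within 1 kb. The bars of the 30 genes run from 76.7% to 93.3% on the left and from 53.3% to 83.3% on the right, above those of all genes in every list.

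Of the 30 genes, 21 had a peak in all 8 lists, against 26.8% of all genes, and 15 had a promoter peak in all 8, against 6.55%. With peaks of a score of at least 100 alone, 12 members were bound in all 8 lists, against 18.7% of all genes. When only the canonical start of each gene was used, 11 of 30 kept a promoter peak in all 8 lists, against 3.84% of the 19881 genes with such a start. By any start, 4 genes had no promoter peak in any list (48.2% of all genes), namely ACO1, PDK3, PDP1 and PDP2, and 11 had one in some lists (45.3%). By the canonical start these counts were 6 (58.2%) and 13 (38.0%), with IDH2 and PDK2 added to the former. A single gene, ACO1, had no peak in any list (15.3% of all genes had none), and 8 were bound in some lists only (57.9% of all genes). By role, 12 of 16 cycle enzymes, 3 of 4 genes of the pyruvate dehydrogenase complex, 3 of 6 of its kinases and phosphatases and 3 of 4 entry and exit genes were bound in all 8 lists. Promoter peaks in all 8 lists were found for 9, 3, 1 and 2 genes of these roles. The only regulator among them was PDK2, through the internal start named above.

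A list of 27 other pathway genes was taken for comparison. It holds the succinate dehydrogenase subunits and assembly factors, the lipoylation enzymes, the malic enzymes, the phosphoenolpyruvate carboxykinases and mitochondrial carriers of cycle intermediates, among others. Here 12 of 27 genes had a peak in all 8 lists (44.4%, against 70.0% of the members and 26.8% of all genes). None was free of peaks in all lists (15.3% of all genes were). Promoter peaks in all 8 lists were present at 4 of them. These are SDHB and SDHD, subunits of succinate dehydrogenase, SLC25A12, an aspartate and glutamate carrier, and OGDHL, a relative of 2-oxoglutarate dehydrogenase.

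Peaks were ranked by score percentile, the rank of a peak's score among all peaks of its own list on a scale to 100. Scores are not comparable between lists, and a percentile depends on the length of the list and is no amount of binding. The strongest peak of a gene can also be a different site in each list. Many strong peaks share a score of 3100, which places them at percentiles from 98.3 to 98.9 according to the list. Higher scores were rare among the members, at CS and IDH3A in the BT-474 EGF list and MPC2 in the SKBr3 EGF list. For bound member genes the median percentile of the strongest peak was 91.0 in SKBr3 cells on vehicle, 82.7 on EGF and 91.3 on HRG, beside 71.6, 68.2 and 72.6 for all bound genes. It was 79.9, 75.7 and 77.2 in the BT-474 lists, beside 65.6, 65.7 and 67.7. It was 94.7 in pSKBr3 and 96.6 in LRSKBr3 cells, beside 70.7 and 74.97. The members were far from uniform, with quartiles from 70.1 to 96.7 in SKBr3 cells on vehicle and from 55.1 to 98.8 in pSKBr3 cells.

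**Figure D2:**
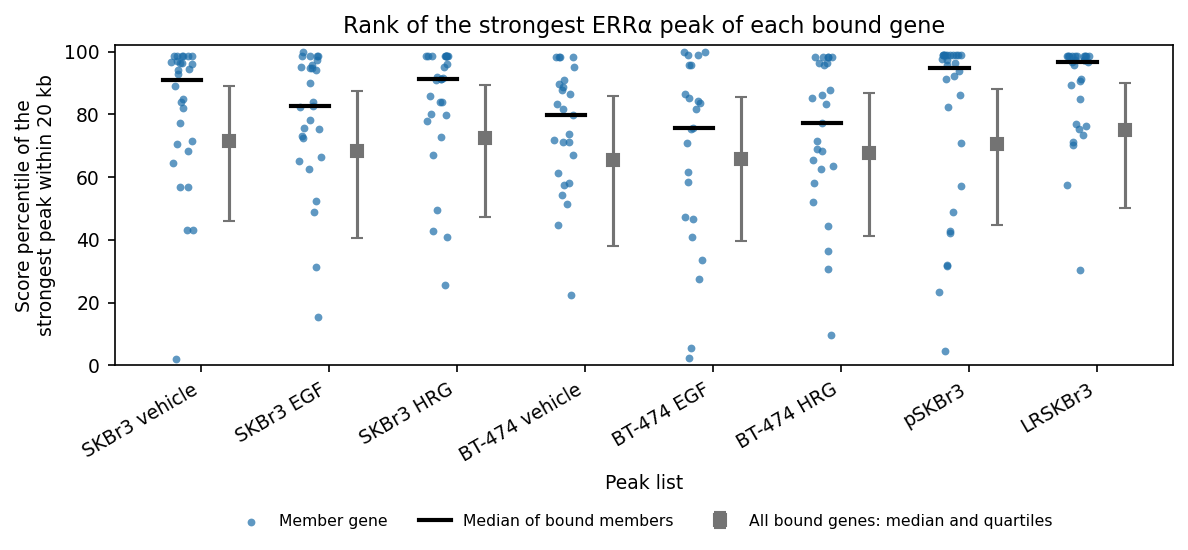
Score percentile of the strongest ERRα peak within 20 kb of a start, by peak list; each point is a bound member gene, black lines mark their medians, and grey squares with bars give the median and quartiles of all bound protein-coding genes. The member medians run from 75.7 (BT-474 EGF) to 96.6 (LRSKBr3) and lie above the grey squares in all 8 lists, while single members reach percentiles below 10.

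Among the cycle enzymes, CS, IDH2, IDH3A and MDH1 carried peaks at the top of every list. CS, citrate synthase, joins acetyl-CoA to oxaloacetate. Its strongest peak lay at percentiles 98.6, 98.6 and 98.6 in SKBr3 cells on vehicle, EGF and HRG, 98.3, 99.9 and 98.4 in BT-474 cells, 97.8 in pSKBr3 and 98.7 in LRSKBr3 cells. Of these, 6 were at the shared score of 3100, the BT-474 EGF value was above it and the pSKBr3 value below. On vehicle and EGF in SKBr3 cells the strongest was a separate peak, at -2072 and -2068 bp from a start. The peak over the start ranked at 94.9 and 90.8 there. The peaks merged into a site at chr12:56692169-56697460 that spans the start and the region upstream, and it holds the CS word printed above. An internal start of CS had a weaker peak in 5 lists, which in BT-474 cells was present on HRG alone, and which was called in LRSKBr3 but not pSKBr3 cells.

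IDH2, the mitochondrial NADP-dependent isocitrate dehydrogenase, had 2 sites that reached a score of 3100 in all 8 lists. The first lies in an intron (chr15:90637610-90640015) around the ERRE word, and the second upstream of the start (chr15:90645699-90649153), with its nearest centre at -1547 bp and its farthest at -2024 bp from it. Neither is a promoter site by the 1 kb limit, and the gene had a promoter peak in SKBr3 cells on HRG only, 886 bp from an internal start at percentile 55.9.

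MDH1, the cytosolic malate dehydrogenase, likewise had a score of 3100 in all 8 lists, here at the promoter (chr2:63814765-63818645). A second MDH1 site, centred 8810 to 9171 bp from a start, was also called in all 8 lists but ranked lower, with a median percentile of 52.3. IDH3A, the catalytic subunit of the NAD-dependent isocitrate dehydrogenase, showed promoter peaks at percentiles 98.6, 95.2 and 98.6 in SKBr3 cells on vehicle, EGF and HRG. The BT-474 values were 98.3, 99.9 and 98.4, and those of pSKBr3 and LRSKBr3 cells 98.8 and 98.7. Its site at chr15:78440395-78444021 holds both printed IDH3A words. A second all-list site of IDH3A, about 3 kb from an upstream alternative start, lies nearer to CIB2, and a weak peak at that alternative start was called in SKBr3 cells on HRG and in LRSKBr3 cells only.

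**Figure D3:**
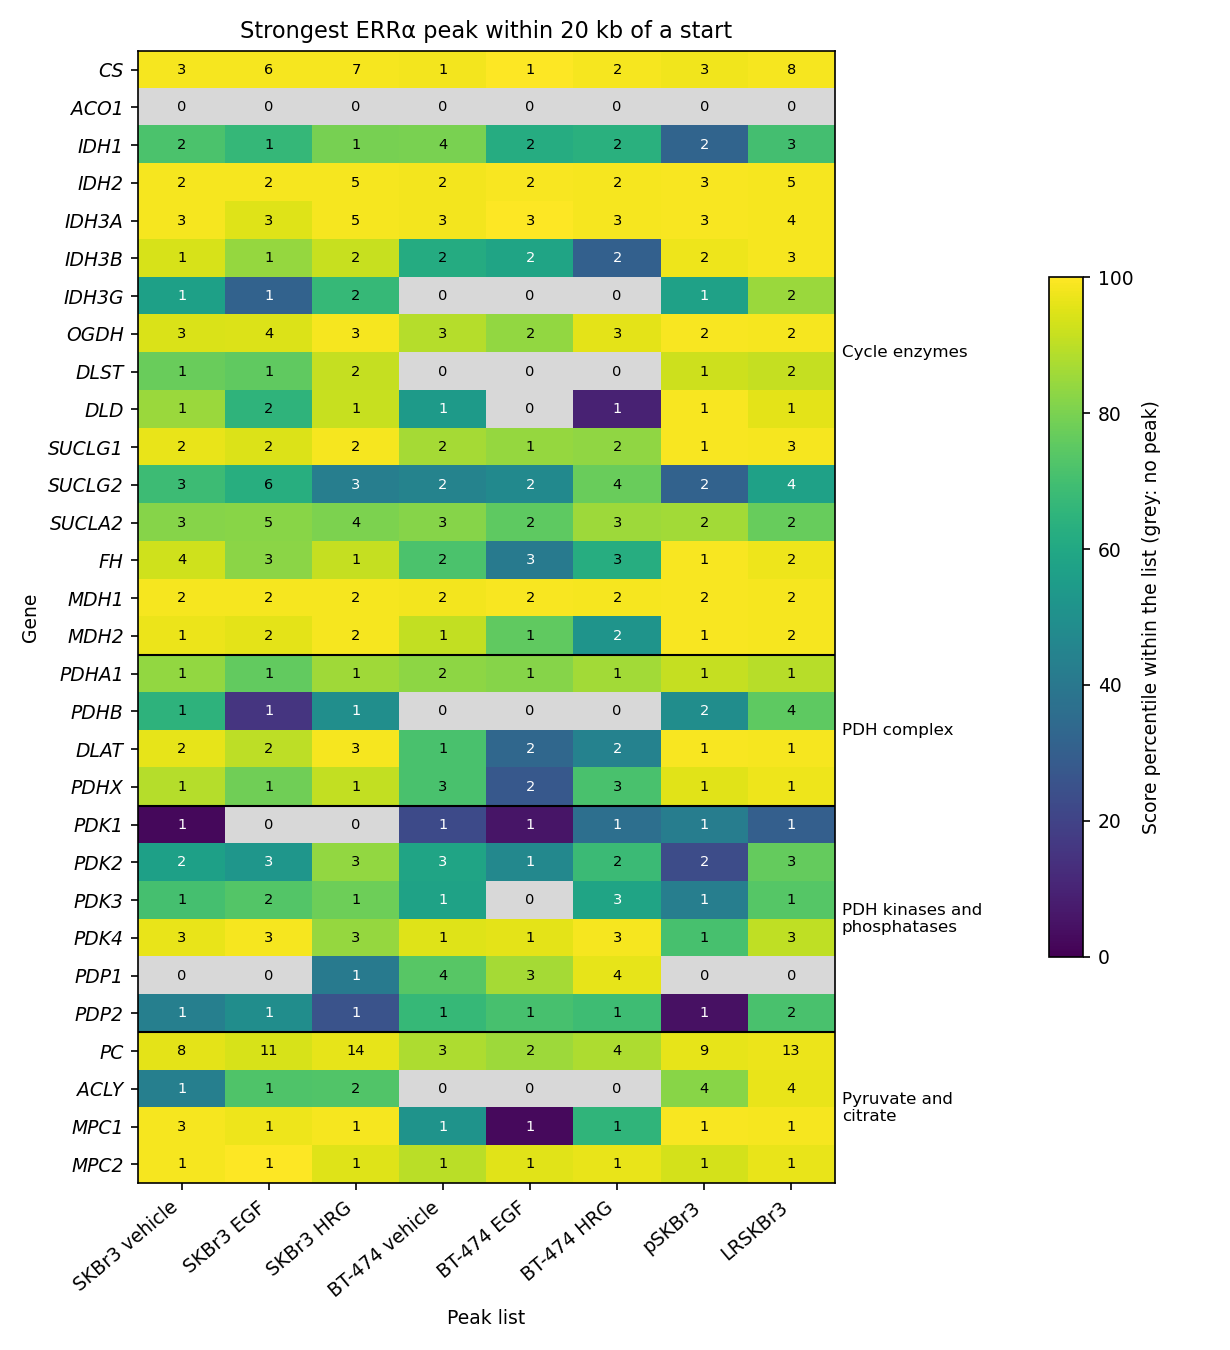
Score percentile of the strongest ERRα peak within 20 kb of a start for each of the 30 genes (rows, grouped by role) in the 8 lists (columns); the number in a cell counts the peaks and grey marks no peak. The rows of CS, IDH2, IDH3A and MDH1 are bright across all 8 columns, ACO1 is grey throughout, and IDH3G, DLST, PDHB and ACLY are grey in the 3 BT-474 columns.

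MDH2, the malate dehydrogenase of the mitochondrial matrix, ranked high in cells of SKBr3 origin and lower in BT-474 cells. Its promoter peak lay at percentiles 97.0, 95.9 and 98.6 in SKBr3 cells on vehicle, EGF and HRG, 98.8 in pSKBr3 and 98.7 in LRSKBr3 cells, but at 90.9, 75.7 and 51.9 in BT-474 cells. The groups of lists did not overlap. MPC1, a subunit of the mitochondrial pyruvate carrier, showed the widest such gap among the 6 highest ranking genes. Its percentiles were 98.6, 97.3 and 98.6 in SKBr3 cells, 98.8 in pSKBr3 and 98.7 in LRSKBr3 cells, and 51.5, 2.48 and 65.3 on vehicle, EGF and HRG in BT-474 cells.

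In all, the strongest peak ranked higher in every SKBr3, pSKBr3 and LRSKBr3 list than in every BT-474 list for 8 of the 21 genes bound in all 8 lists, and in the opposite way for 0 (26.2% and 11.5% of the 5401 genes bound in all lists). Besides MDH2 and MPC1 these are IDH3B, SUCLG1, FH, DLAT, PDHX and PC. IDH3B is a further subunit of the NAD-dependent isocitrate dehydrogenase. SUCLG1 is the shared subunit of succinyl-CoA synthetase, FH hydrates fumarate to malate, and DLAT and PDHX are core proteins of the pyruvate dehydrogenase complex. On HRG in BT-474 cells the strongest FH and IDH3B peaks were at -14255 and 8263 bp from a start (upstream is negative), and the promoter peaks ranked at 36.7 and 0.981. The BT-474 lists rest on 1 library each and their median peak width was 1817 to 2012 bp, against 1188 to 1458 bp in the other lists. The pSKBr3 and LRSKBr3 cells, unlike the BT-474 cells, were also not serum-starved. The part of these differences in the result was not tested.

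The remaining cycle enzymes bound in all 8 lists had a promoter site in each list, apart from OGDH and SUCLG2. OGDH, the first enzyme of the 2-oxoglutarate dehydrogenase complex, had a site over its start in all 8 lists (chr7:44643940-44651144). On HRG in SKBr3 cells this site was called as a single broad peak at percentile 98.6 with its centre 1406 bp from the start, and so it fell outside the 1 kb limit there. The strongest OGDH peaks lay at percentiles 94.5, 94.6 and 98.6 in SKBr3 cells on vehicle, EGF and HRG, 88.7, 83.8 and 95.8 in BT-474 cells, 98.8 in pSKBr3 and 98.7 in LRSKBr3 cells. The values for vehicle in SKBr3 cells and HRG in BT-474 cells are those of other sites, 12303 and 11864 bp from a start, and the start site ranked at 92.2 and 85.8 there. SUCLG2, the GTP-specific subunit of succinyl-CoA synthetase, was bound in all 8 lists at an intronic site 9550 bp or more from a start, with a median percentile of 52.3, and had promoter peaks in pSKBr3 and LRSKBr3 cells only.

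SUCLA2, the ATP-specific subunit of the same enzyme, had strongest peaks at percentiles 81.9, 82.3 and 80.2 in SKBr3 cells on vehicle, EGF and HRG, 81.9, 75.3 and 85.2 in BT-474 cells, 86.2 in pSKBr3 and 76.9 in LRSKBr3 cells. The pSKBr3 value is that of a second site, and the main promoter site ranked at 76.4 there, so that this site lay between 75.3 and 85.2 in the 8 lists. The second SUCLA2 site, at an upstream alternative start, was missing on EGF in both cell lines and present in the other 6 lists. IDH1, the cytosolic NADP-dependent isocitrate dehydrogenase, ranked lower, at 71.6, 66.4 and 79.7 in SKBr3 cells on vehicle, EGF and HRG, 79.9, 61.8 and 63.4 in BT-474 cells, 32.1 in pSKBr3 and 70.1 in LRSKBr3 cells. Its main site carries the printed IDH1 word. The pSKBr3 value is that of a second site, at -816 bp from an internal start, and the main site ranked at 11.3 in that list. This second IDH1 site was called on vehicle but on neither growth factor in SKBr3 cells.

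Of the cycle enzymes, IDH3G, DLST and DLD were bound in some lists only, and ACO1 in none. ACO1 is the cytosolic aconitase, which also acts as an iron-responsive RNA-binding protein, and no peak centre lay within 20 kb of its 3 annotated starts in any of the 8 lists. IDH3G, the third type of subunit of the NAD-dependent isocitrate dehydrogenase, had a promoter site at percentiles 56.9, 31.4 and 66.9 in SKBr3 cells on vehicle, EGF and HRG, 57.2 in pSKBr3 and 84.8 in LRSKBr3 cells, and no peak in BT-474 cells. The start of SSR4 lies nearer to this site than that of IDH3G. DLST, the succinyltransferase of the 2-oxoglutarate dehydrogenase complex, had the same pattern of calls, at 77.2, 75.4 and 91.4 in SKBr3 cells, 92.2 in pSKBr3 and 91.2 in LRSKBr3 cells. DLD, the dihydrolipoamide dehydrogenase used by several such complexes, was called at its promoter in 7 lists. Its percentiles were 85.0, 65.0 and 91.7 in SKBr3 cells on vehicle, EGF and HRG, 98.8 in pSKBr3 and 95.8 in LRSKBr3 cells. BT-474 cells gave 54.4 on vehicle, no peak on EGF and 9.74 on HRG.

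The pyruvate dehydrogenase complex was bound at the promoter of 3 of its 4 genes in all 8 lists. PDHA1, the alpha subunit of the pyruvate dehydrogenase enzyme, had percentiles from 75.8 to 91.2 and the least spread of the 4. DLAT ranged from 33.5 (BT-474 EGF) to 98.8 (pSKBr3). PDHX, which anchors dihydrolipoamide dehydrogenase to the complex, had strongest peaks at 89.0, 78.3 and 90.9 in SKBr3 cells on vehicle, EGF and HRG, 71.2, 27.5 and 71.5 in BT-474 cells, 95.7 in pSKBr3 and 97.4 in LRSKBr3 cells. The BT-474 EGF value is that of a peak at -17152 bp from a start, and the promoter peak ranked at 19.7 there. The PDHX promoter faces that of APIP, and the peaks cannot be assigned to either gene.

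PDHB, the beta subunit of the enzyme, was the exception. Its strongest peak lay at percentiles 64.5, 15.3 and 49.4 in SKBr3 cells on vehicle, EGF and HRG, 49.0 in pSKBr3 and 75.3 in LRSKBr3 cells, and no BT-474 list had a peak. The SKBr3 vehicle and EGF peaks were intragenic, 5646 and 5661 bp downstream of a start, while the HRG list had lost that site and had a promoter peak 182 bp from a start. Both sites were called in pSKBr3 and in LRSKBr3 cells.

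The complex is regulated by 4 kinases and 2 phosphatases. The kinases inactivate pyruvate dehydrogenase by phosphorylation. PDK1 had the lowest median percentile of the 29 bound genes (26.3), at percentile 2.09 in SKBr3 cells on vehicle, none on EGF or HRG, 42.3 in pSKBr3 and 30.3 in LRSKBr3 cells, all at the promoter. In BT-474 cells it was bound at another site, 12253 to 12353 bp from a start, at 22.3, 5.50 and 36.5 on vehicle, EGF and HRG. The PDK1 peak of the SKBr3 vehicle list scored 51.9, just above the lowest score of 50, so that its absence on the growth factors is a difference at the calling limit.

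PDK4, the kinase known to respond to fasting, had a strong site far upstream and a weaker one at its promoter. The upstream site (chr7:95236505-95248482) was called in all 8 lists, and the strongest peak of the gene lay at percentiles 96.5, 98.6 and 84.1 in SKBr3 cells on vehicle, EGF and HRG, 95.2, 95.8 and 98.4 in BT-474 cells, 70.8 in pSKBr3 and 90.6 in LRSKBr3 cells. The promoter site was called in 5 lists, at 57.3, 62.3 and 73.0 in the SKBr3 lists, 21.8 in BT-474 cells on HRG and 57.9 in LRSKBr3 cells. PDK4 was thereby the single member to gain a promoter peak on HRG in BT-474 cells (3.21% of all genes did) and in LRSKBr3 against pSKBr3 cells (12.4% of all genes).

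PDK3 had no promoter peak. An intronic site 3930 to 4065 bp from an internal start gave percentiles of 70.7, 73.1 and 77.8 in SKBr3 cells on vehicle, EGF and HRG, 57.4 and 58.3 in BT-474 cells on vehicle and HRG, 42.7 in pSKBr3 and 73.5 in LRSKBr3 cells, and only the BT-474 EGF list lacked it. PDK2 was bound in all 8 lists, with strongest peaks between 23.4 and 83.9. The phosphatases PDP1 and PDP2 restore pyruvate dehydrogenase activity, and neither had a promoter peak in any list. PDP1 was bound mainly in BT-474 cells, 8655 bp or more from a start, at percentiles 73.9, 86.4 and 96.4 on vehicle, EGF and HRG, and at 40.9 in SKBr3 cells on HRG, with no peak in the other 4 lists. PDP2 had a site about 11 kb downstream of a start in all 8 lists, at percentiles from 4.45 to 71.3.

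The last 4 genes move pyruvate and citrate. MPC2, the partner of MPC1 in the carrier, had a single broad site in all 8 lists at percentiles from 89.8 to 99.9, within 1 kb of the canonical start in 3 of them and of another annotated start in all. PC, pyruvate carboxylase, which makes oxaloacetate from pyruvate, had 16 sites, the most of the 30 genes. The number of PC peaks was 8, 11 and 14 in SKBr3 cells on vehicle, EGF and HRG, 3, 2 and 4 in BT-474 cells, 9 in pSKBr3 and 13 in LRSKBr3 cells. Its strongest peaks lay at percentiles 96.1, 94.1 and 96.2 in SKBr3 cells, 87.8, 85.2 and 87.7 in BT-474 cells, 96.4 in pSKBr3 and 97.2 in LRSKBr3 cells. Both sites of PC called in all 8 lists were over 12 kb from a start and nearer to RCE1 or C11orf86. ACLY, the ATP citrate lyase that turns exported citrate back into acetyl-CoA, was bound at 43.0, 72.6 and 72.8 in SKBr3 cells, 82.4 in pSKBr3 and 96.6 in LRSKBr3 cells, and in no BT-474 list. The main ACLY site lies in an intron of ODAD4, and the canonical promoter had peaks in pSKBr3 and LRSKBr3 cells only.

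The peaks were also described as sites. Of the 122 sites, 25 were called in all 8 lists, 63 in 2 to 7 and 34 in 1 list. Sites within 1 kb of a start made up 16 of the 25 all-list sites (64.0%), 16 of the 63 (25.4%) and 2 of the 34 (5.88%). Over all pairs of a protein-coding gene and a site near it, with the distance taken to that gene as here, these shares were 32.3%, 24.4% and 15.2%. The member gene was the nearest protein-coding gene for 91 of the 122 sites. Of the 64 sites over 5 kb from a start, 6 were called in all 8 lists (9.38%, against 8.16% of all pairs at this distance) and 22 in 1 list (34.4% against 37.1%).

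**Figure D4:**
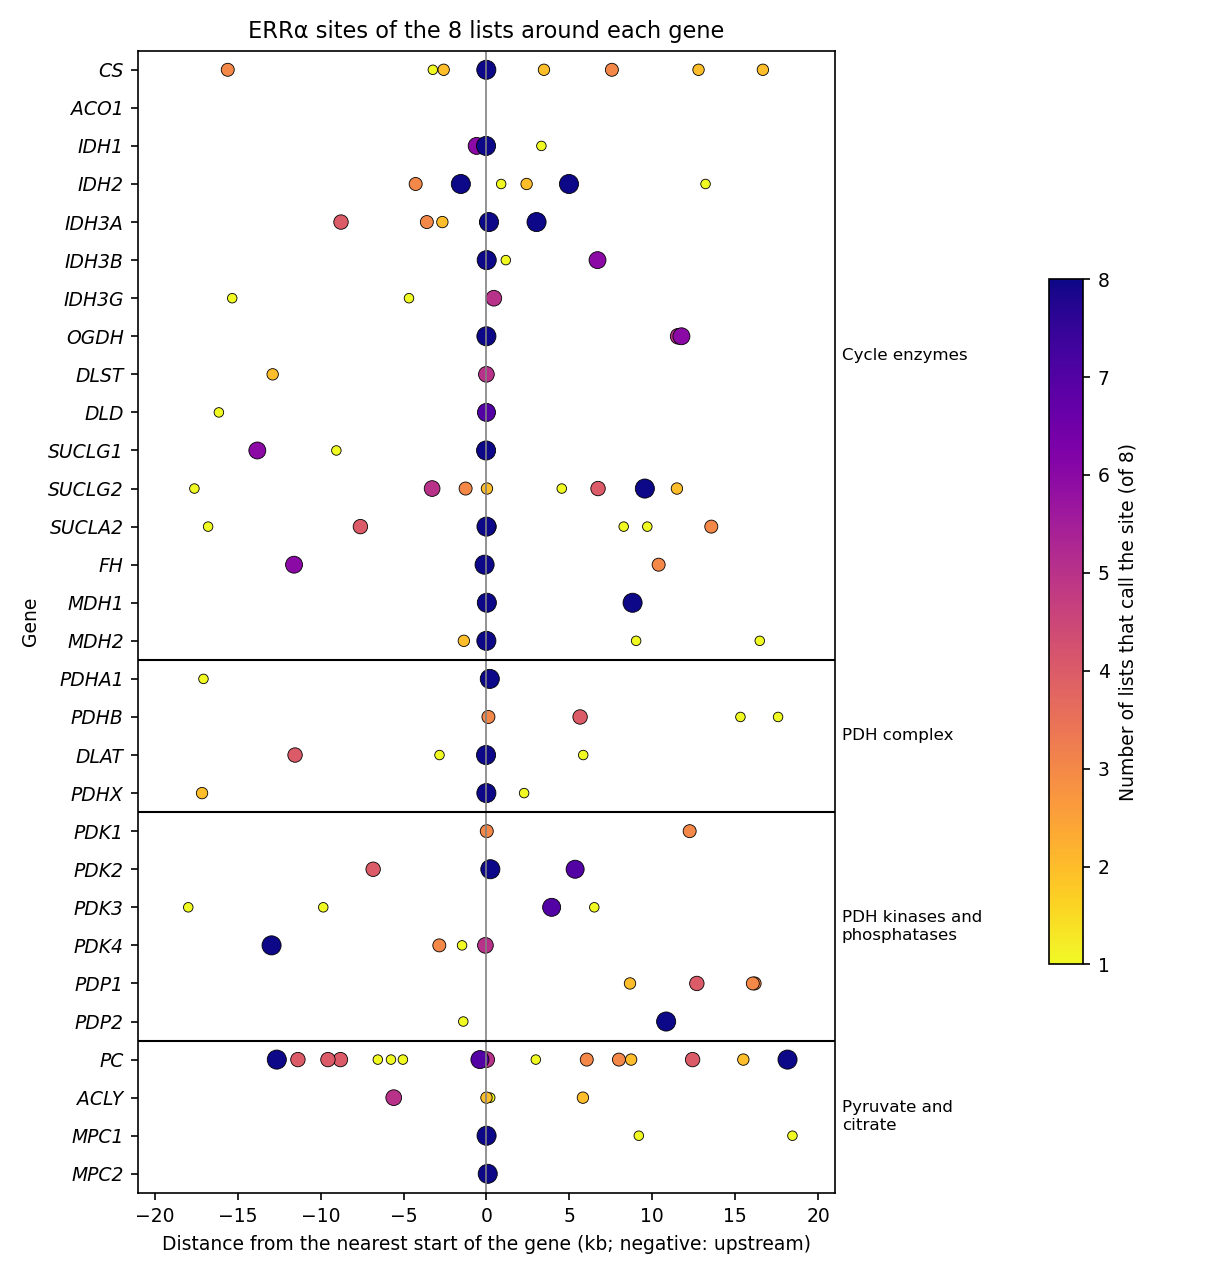
Distance of each of the 122 ERRα sites from the nearest start of its gene, in kb, for the 30 genes grouped by role; colour and size give the number of lists, from 1 to 8, that call the site. Most of the darkest points, called in all 8 lists, fall at 0 kb, whereas points called in 1 list are spread over the 20 kb on each side.

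On growth factor treatment of SKBr3 cells, the sites near the 30 genes numbered 94. Of these, 42 were called in all 3 lists (44.7%, against 32.4% of the sites near any protein-coding gene) and 37 were growth factor-induced, that is called on EGF or HRG or both but not on vehicle (39.4% against 46.8%). Vehicle-only sites numbered 5 (5.32% against 9.65%). With the lists cut to equal size by score, 21 of 67 sites were growth factor-induced (31.3% against 40.98%). The growth factor-induced sites comprised 9 with EGF alone (9.57% of the member sites against 7.2% of all sites), 19 with HRG alone (20.2% against 30.03%) and 9 shared by them (9.57% against 9.58%). In lists of equal size these were 5 with EGF alone (7.46% against 7.66%), 11 with HRG alone (16.4% against 23.95%) and 5 shared (7.46% against 9.37%). Of the 37 induced sites, 3 lay within 1 kb of a start (8.11%, against 20.4% of all pairs of a gene and an induced site), those of IDH2, IDH3A and PDHB, each on HRG only. The IDH2 and IDH3A sites were at other starts, 2659 bp and -17928 bp from the canonical one. This IDH3A site also lay 1 bp from a start of CIB2. At the level of genes, PDK1 was the single member with a peak on vehicle and not on EGF (5.63% of all genes) and likewise on vehicle and not on HRG (4.31%). PDP1 was the single gained member on HRG (16.5%), and no member was gained on EGF (7.76%). At promoters, PDK1 was again the single loss on EGF (5.07% of all genes) with no gain (4.1%), while on HRG OGDH and PDK1 were lost (3.34%) and IDH2 and PDHB gained (15.8%), the OGDH site being the broad peak described above.

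The score percentiles of the lists were then set side by side. The SKBr3 lists held 32183 peaks on vehicle and 37195 on HRG, so that a difference in percentile also reflects the length and makeup of the list, and no change of binding is read from it. Of 27 genes bound on vehicle and EGF in SKBr3 cells, the strongest peak ranked at least 5 percentile points higher on EGF for 2 and lower for 10 (24.95% and 38.3% of all genes bound in both). On HRG it ranked higher for 7 of 27 and lower for 4 (43.1% and 23.1% of all genes). A peak near the top of its list has little room to rank higher, and on vehicle 14 of the 28 bound members ranked above percentile 90, against 23.1% of all bound genes. The median difference over the 27 genes was -1.80 points on EGF and 0.12 on HRG, beside -1.75 and 2.70 for all genes. The widest difference on EGF was that of PDHB (-49.2 points), and on HRG that of ACLY (29.8 points).

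BT-474 cells had 64 sites near the 30 genes. Here 35 were called in all 3 lists (54.7% against 40.1% of all sites), 14 were growth factor-induced (21.9% against 31.1%) and 4 were vehicle only (6.25% against 12.05%). HRG alone accounted for 12 of the induced sites (18.75% of the member sites against 22.7% of all sites), EGF alone for 1 (1.56% against 5.38%), and 1 was called on both (1.56% against 3.04%). Of the 14 induced sites, 2 lay within 1 kb of a start (14.3%, against 10.4% of all pairs of a gene and an induced site). These were at PDK4 and at the internal start of CS, both on HRG only. In lists of equal size 8 of 45 sites were induced (17.8% against 23.6%), and the split between the growth factors was reversed. There 5 sites were called on EGF alone (11.1% against 8.96%), 2 on HRG alone (4.44% against 10.4%) and 1 on both (2.22% against 4.24%). DLD and PDK3 lost their peaks on EGF (13.7% of all genes did), and no member gained one on EGF (3.04%) or on HRG (8.21%) or lost one on HRG (5.88%). At promoters, DLD and PC lost their peaks on EGF (9.1% of all genes), no member gained one on EGF (1.08%) and none was lost on HRG (5.82%). The strongest peak ranked at least 5 points lower on EGF for 9 of 23 genes and higher for 2 (45.8% and 13.6% of all genes), and on HRG higher for 7 of 25 and lower for 6 (35.6% and 23.9%). MPC1 had the widest difference on EGF (-49.0 points).

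The 2 SKBr3 sublines shared 48 of 84 sites near the 30 genes (57.1% against 49.0% of all sites), with 33 sites in LRSKBr3 cells only (39.3% against 46.2%) and 3 in pSKBr3 cells only (3.57% against 4.81%). In lists of equal size these numbers were 14 and 8 of 65 (21.5% and 12.3%, against 21.8% and 17.5% of all sites), and the part of list length in the difference between the sublines was otherwise not tested. The same 28 genes had a peak in both lists. Only ACO1 and PDP1 were without a peak in pSKBr3 cells, and neither gained one in LRSKBr3 cells, where 34.2% of the 8650 genes unbound in pSKBr3 cells did (14.7% of all genes). No member was lost (1.84% of all genes). No member lost a promoter peak in LRSKBr3 cells either (2.03% of all genes). Of the 33 sites of LRSKBr3 cells only, 5 were within 1 kb of a start (15.2%, against 19.8% of all pairs of a gene and such a site), near ACLY, CS, IDH1, IDH3A and PDK4. Of these, the PDK4 site lay at the canonical start. Those of ACLY, CS, IDH1 and IDH3A lay at other annotated starts, 8598 bp or more from the canonical one. The strongest peak ranked at least 5 points higher in LRSKBr3 cells for 9 of 28 genes and lower for 2 (53.4% and 9.93% of all genes). The lists held 22539 and 39777 peaks and the median difference over all genes was 6.08 points, so that these differences are no measure of more or less binding. The widest difference with a higher rank in LRSKBr3 cells was that of PDP2, at percentile 4.45 in pSKBr3 and 71.3 in LRSKBr3 cells, and the widest with a lower rank was that of PDK1, at 42.3 and 30.3.

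Between the starved lines on vehicle, ACLY, DLST, IDH3G and PDHB had a peak in SKBr3 and not in BT-474 cells (13.3% of all genes), and PDP1 the reverse (12.2%). Promoter peaks were present in SKBr3 cells alone at DLST, IDH3G, PDK1 and PDK4 (9.75% of all genes) and in BT-474 cells alone at no member (5.89%). On EGF the first group was joined by DLD and PDK3 (22.1% of all genes) and PDP1 by PDK1 (8.17%), and promoter peaks in SKBr3 cells alone were those of DLD, DLST, IDH3G, PC and PDK4 (13.5%, and 2.6% the reverse). On HRG, ACLY, DLST, IDH3G and PDHB again had a peak in SKBr3 and not in BT-474 cells (21.7% of all genes), and PDK1 was the single member with the reverse (10.6%). At promoters DLST, IDH2, IDH3G and PDHB had a peak on HRG in SKBr3 cells alone (22.9% of all genes) and OGDH in BT-474 cells alone (4.01%). The OGDH start was nonetheless covered in SKBr3 cells by the broad peak described above, whose centre lay 1406 bp away.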

How the data were processed

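ERRα ChIP and input libraries (19 samples) came from 4 breast cancer cell populations, and 8 peak lists were used. The authors aligned reads to hg19 with BWA (0.5.9) and SAMtools (0.1.18), as named in the submitters' processing notes, pooled replicates where there were any, and called peaks against input with MACS at a P cutoff of 1e-05. BT-474 lists share the vehicle input. Each deposited score is the value MACS derives from the log10 of the peak's P value, with a minimum of 50 at the cutoff, and depends on depth, so that it was ranked within its list only. The headers of the SKBr3 vehicle, EGF and HRG lists name FindPeaks, while the peaks carry MACS names. Depth is unknown.

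Peaks were assigned to every start of a gene in GENCODE 44 mapped to GRCh37, within 20 kb, with Python (3.11.15) and pandas. Peaks overlapping by 1 bp or more were merged into sites. Values in every list are given for genes bound in no list, genes whose call differed between lists, the 6 genes with the highest median percentile among those bound in all 8 lists, and genes with a site gained or lost within 1 kb of a start. The members and lists were chosen with earlier results of these data known. Starts of protein-coding transcripts or canonical transcripts only, the looser word and the split between lines were added after the data were seen. The steps were tested on simulated data. Conditions have 1 list each and the lists do not say whether libraries are separate cultures, so that no test was made.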

Additional observations from a re-analysis of the deposited data

Results flagged for a closer look

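For 3 genes, the score percentile of the strongest peak differed by at least 5 points between the HRG and vehicle lists, in opposite directions in SKBr3 and BT-474 cells, and the difference was not tested, since each condition has 1 list. A percentile is a rank within its list, and the vehicle and HRG lists held 32183 and 37195 peaks in SKBr3 and 32259 and 41271 in BT-474 cells, so that these values also reflect the lists and are not changes of binding. The strongest peak of DLD ranked 6.71 points higher on HRG in SKBr3 cells, from 85.0 to 91.7, and its rank differed by -44.7 points in BT-474 cells, from 54.4 to 9.74. For IDH1 the difference was 8.06 points in SKBr3 cells, from 71.6 to 79.7, and -16.5 points in BT-474 cells, from 79.9 to 63.4. SUCLG2 had the opposite signs, with -25.4 points in SKBr3 cells, from 68.4 to 42.9, and 32.6 points in BT-474 cells, from 44.6 to 77.2. The strongest SUCLG2 peak on HRG was at a different site in each line, so that these values follow the gene rather than a single site. On EGF no gene met this condition.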

How the results depend on the processing

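Counts of bound genes per list stayed within 1.5 times the reported count under every alternative run. With scores of at least 100 (P 1e-10), genes bound in all 8 lists fell to 12 and those bound in some lists rose to 17, other pathway genes bound in all lists fell to 7, all-list sites to 15, sites called in all 3 BT-474 lists to 23, and growth factor-induced sites to 21 in SKBr3 and 5 in BT-474 cells. With scores of at least 80 (P 1e-08), BT-474 cells had 9 growth factor-induced sites and pSKBr3 cells 5 sites of their own. In lists of equal size, growth factor-induced sites numbered 21 in SKBr3 and 8 in BT-474 cells, sites of pSKBr3 cells only 8 and of LRSKBr3 cells only 14. Within 1 kb, 4 genes were bound in no list and 4 other pathway genes in all. Within 10 kb, 3 SKBr3 sites were vehicle only. With centres within 500 bp forming a site, 7 BT-474 sites were vehicle only and 9 were called in pSKBr3 cells only. The share of member sites with AAGGTCA was 20.49% (18.1% of all sites near a protein-coding gene), with TCAAGGTCA in the whole peak 13.1% (11.6%) and within 50 bp 3.28% (2.56%). The median percentile of the peak nearest to a start was 56.1 in BT-474 cells on HRG. No paired analysis was possible because each condition has 1 peak list, and no library could be left out of a pooled list. Many strong member peaks share a score of 3100, and differences among these cannot be seen.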
